A study of Mus musculus with 33 samples.

Results

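The 10 genes described here encode the nuclear receptors and coactivators that set fatty acid and mitochondrial metabolism in heart muscle, measured by single-cell RNA sequencing in 33 mouse heart cells. They are the receptors Ppara, Ppard, Esrra, Esrrb, Esrrg, Rxra, Thra and Thrb and the PGC1 coactivators Ppargc1a and Ppargc1b. They were taken by gene symbol, and all 10 were present among the 14862 gene rows. The cells came from ventricles of mice that carry mAG-hGem, the green geminin fusion of the FUCCI reporter, whose protein builds up once S phase starts and is lost at mitosis. All groups share this transgene. Cells were sorted at embryonic day 14.5 (E14.5) into 10 mAG-hGem positive and 11 mAG-hGem negative cells, and at postnatal day 5 (P5) into 6 positive and 6 negative cells. Cells were accepted as cardiomyocytes when PCR found Tnnt2 and did not find Pdgfrb, per the labels, and the mRNA of each cell was amplified as antisense RNA, per the series' design text.

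The proteins work as one regulatory circuit. PPAR and thyroid hormone receptors bind DNA mostly as heterodimers with retinoid X receptors such as Rxra, while estrogen-related receptors have no known natural hormone and bind DNA as monomers or dimers. PGC1 proteins do not bind DNA themselves but are recruited by these receptors and raise transcription of genes for fatty acid oxidation and oxidative phosphorylation. In the heart this circuit is known for the shift from glucose and lactate towards fatty acids around birth.

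Each cell is 1 sample in the series and no animal is named, so each group stands for 1 sample and no test between groups was made. Levels are counts per 1000000 (CPM). A group's level is its summed counts over its summed total, and ratios between groups are log2 ratios of these levels with an exact (Clopper-Pearson) 95% interval, which covers counting error only. A ratio is called higher or lower past 2-fold, with at least 10 counts over both groups. Totals ran from 2.55 to 38.5 M counts per cell (1 M is 1000000), with medians of 11.5 M (E14.5 positive), 16.9 M (E14.5 negative), 13.9 M (P5 positive) and 12.8 M (P5 negative). The lowest total was that of the P5 positive cell L1P5, in which 3991 genes were detected and 3 counts make 1.18 CPM.

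The labelled cell type held for most cells but not for all. The summed CPM of 12 cardiomyocyte markers exceeded that of each other marker class in 20 of the 21 embryonic cells, in 5 of 6 positive cells at P5 and in 0 of 6 negative cells at P5. The P5 positive cell L2P12 held 105 CPM of cardiomyocyte and 8191 CPM of endothelial markers. The E14.5 negative cell N10 held 46775 CPM of fibroblast and mural markers beside 24457 CPM of cardiomyocyte markers. Among P5 negative cells, endothelial markers led in L2N4, L2N7 and L2N9. The cells L1N3 and L2N10 were led by red blood cell markers with endothelial markers also high. L2N12 was led by fibroblast and mural markers at 19501 CPM. It also held 3721 CPM of epicardial markers, all 5 of them at 10 CPM or more, so its kind is not settled by the leading class. Comparisons with P5 negative cells therefore set unlike cell types side by side, and mAG-hGem status and cell type cannot be told apart there.

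Promoter sequences are shown for 3 members on which the results below turn: Rxra and Thrb, whose reads were found at only 1 of the 2 ages in positive cells, and Ppargc1a, the most abundant member. They come from RefSeq (build GRCm38.p6), 250 bases before to 50 after a transcription start, written 5′ to 3′ on the gene's strand. Capitals mark the hexamer AGGTCA, or TGACCT where it lies on the opposite strand, the core that these receptors recognise. The windows are the downstream of 2 listed Rxra starts at chr2:27709042-27709341 (plus strand), the upstream of 2 listed Thrb starts at chr14:17660710-17661009 (plus strand), and the Ppargc1a start at chr5:51567676-51567975 (minus strand).
Rxra: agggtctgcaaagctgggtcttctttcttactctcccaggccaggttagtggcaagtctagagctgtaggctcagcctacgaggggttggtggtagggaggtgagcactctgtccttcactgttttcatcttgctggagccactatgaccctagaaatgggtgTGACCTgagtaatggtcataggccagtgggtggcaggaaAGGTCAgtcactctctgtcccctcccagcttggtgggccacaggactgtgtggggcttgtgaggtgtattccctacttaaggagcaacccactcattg
Thrb: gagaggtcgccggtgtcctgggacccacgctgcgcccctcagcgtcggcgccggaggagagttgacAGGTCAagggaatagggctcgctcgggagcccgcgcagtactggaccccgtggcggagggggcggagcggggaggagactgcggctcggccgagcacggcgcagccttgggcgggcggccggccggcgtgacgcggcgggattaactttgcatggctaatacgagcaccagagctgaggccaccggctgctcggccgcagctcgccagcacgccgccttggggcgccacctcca
Ppargc1a: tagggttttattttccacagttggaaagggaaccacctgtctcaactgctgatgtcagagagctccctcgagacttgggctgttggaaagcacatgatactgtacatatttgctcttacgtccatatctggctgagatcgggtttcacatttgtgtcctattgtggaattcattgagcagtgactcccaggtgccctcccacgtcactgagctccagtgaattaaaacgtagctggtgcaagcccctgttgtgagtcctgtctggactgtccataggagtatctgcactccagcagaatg

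The Rxra window holds the hexamer on each strand, at positions 164 and 203 counted from 1 at the 5′ end, and the Thrb window holds it once, at position 67. In the Rxra window, the copy at 203 is preceded by an A and so also reads AAGGTCA, which was searched as well and overlaps it. Promoters of 8 of the 10 members, matched by symbol, were searched as 14 windows, and only these 2 windows held the hexamer. Of all 32851 promoters of the same length, 16.3% held it on either strand, and 4.72% held AAGGTCA. The longer TCAAGGTCA, in 0.423% of all promoters, and the cAMP response element TGACGTCA, in 1.79%, were in no member window. The shown Rxra window had 54.3% GC with 1 CpG, the Thrb window 72.7% GC with 37 CpG, and the Ppargc1a window 48.7% GC with 5 CpG. Medians over all promoters were 52.7% GC and 7 CpG. For Rxra and Thrb the window shown is the one of 2 that holds the hexamer. The other Rxra window had 83% GC with 55 CpG and the other Thrb window 46% GC with 4 CpG, both without the hexamer. These letters describe the windows and were not set against binding data.

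Ppargc1a, the coactivator PGC1 alpha, was the most abundant member per kilobase of exon in every group except P5 negative. The gene lies on the minus strand of chromosome 5 at chr5:51454250-51567726 (GRCm38, GENCODE M21). Single E14.5 positive cells held 218 to 898 CPM with a median of 560 CPM, and E14.5 negative cells 1.37 to 1647 CPM with a median of 661 CPM. The low E14.5 negative value belonged to N21, which was led by cardiomyocyte markers, and the next lowest cell held 154 CPM. P5 positive cells held 0.267 to 1373 CPM with a median of 258 CPM, and the 6 P5 negative cells held 1 count in all, in L2N4. The E14.5 positive cells were thus all high. The P5 positive cells spread from near 0 in the endothelial-led L2P12 to a level in L1P5 above every E14.5 positive cell. L1P5 was the cell with the lowest total, 2.55 M counts, and whether its depth bears on this level was not tested. P5 negative cells lay below all others.

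The summed level of Ppargc1a was 529 CPM (E14.5 positive), 789.8 CPM (E14.5 negative) and 209.5 CPM (P5 positive, exact Poisson interval 207 to 212). Positive cells at P5 over those at E14.5 gave a log2 ratio of -1.34 (-1.36 to -1.31), which is 2.52-fold lower, but the cells of the groups overlapped. Without L2P12 it was -0.93, with equal weight for each cell -0.56 and with DESeq2 size factors -0.95, all inside 2-fold. E14.5 positive over negative stood at -0.58 (-0.59 to -0.57). The means over single cells were 546 ± 209 CPM (SD, n = 10 E14.5 positive cells), 744 ± 528 CPM (n = 11 E14.5 negative cells) and 372 ± 507 CPM (n = 6 P5 positive cells). Each difference between these means was smaller than the SD of either group.

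Ppargc1b, the coactivator PGC1 beta, had the largest ratio between the embryonic groups among the members with reads in both. All 10 E14.5 positive cells had reads, from 1.67 to 65.3 CPM with a median of 7.60 CPM. Of 11 E14.5 negative cells, 7 had none, and the other 4 held 0.321 to 12.7 CPM. The groups overlapped through N25, N5 and N7, which lay within the range of positive cells. The summed level was 16.6 CPM (positive) against 1.90 CPM (negative), a log2 ratio of 3.13 (2.97 to 3.29), or 8.73-fold higher. The cell G28 held 59.9% of the counts of E14.5 positive cells, and without it the ratio was 2.04. Without N25 it was 5.05.

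At P5, Ppargc1b was read in 4 of 6 positive cells. L1P5 held 69.9 CPM, L2P12 28.1 CPM, L2P7 13.5 CPM and L2P8 5.31 CPM, and L2P3 and L2P10 held none. The endothelial-led cell L2P12 was thus high for Ppargc1b while nearly devoid of Ppargc1a. No read was found in P5 negative cells (0 of 6 cells, exact interval of the share up to 45.9%). Positive cells at P5 over those at E14.5 gave -0.44 (-0.55 to -0.34), which became -1.24 without L2P12 and 0.64 without G28.

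Levels of Ppargc1b were read beside cell cycle transcripts, since mAG-hGem marks cycling cells. A list of 15 G2 and M phase genes was chosen after the values of Ppargc1b were seen. Its sum had medians of 5346 CPM (E14.5 positive), 56.2 CPM (E14.5 negative), 7066 CPM (P5 positive) and 119 CPM (P5 negative). The P5 positive cell L2P10 stood at 24.4 CPM and the other cells of that group at 6770 to 8018 CPM. Of the 17 cells at or above the lowest E14.5 positive sum, 14 had reads of Ppargc1b, with a median of 7.45 CPM over the 17. Of the 16 cells below it 4 had reads. This cut places all 10 E14.5 positive cells in the upper set by construction, and all of them had reads. The upper cells without reads were L2P3 and the mAG-hGem negative cells N24 and L2N9, with sums of 1786 and 1009 CPM. Over all 33 cells Spearman's rho between Ppargc1b and this sum was 0.63. Within groups it was 0.48 over the 10 E14.5 positive and -0.17 over the 11 E14.5 negative cells. These cells share depth and group, so the values are descriptions only.

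**Figure D1:**
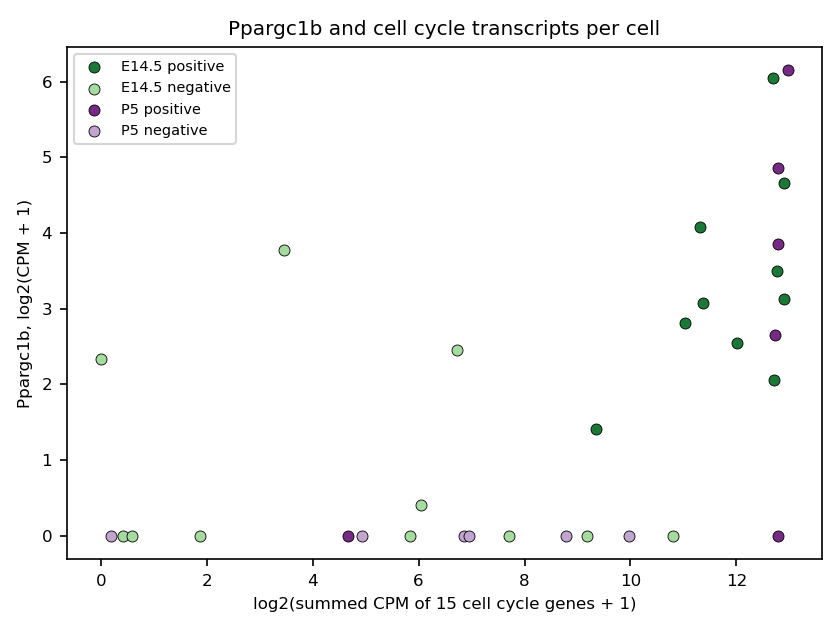
Ppargc1b and the summed CPM of 15 cell cycle genes in each of the 33 cells, both as log2(CPM + 1), coloured by group. All 10 E14.5 positive cells have Ppargc1b reads, while 7 of 11 E14.5 negative cells and all 6 P5 negative cells lie at 0.

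Esrrg, the estrogen-related receptor gamma, known for driving oxidative genes in fetal and postnatal heart muscle, was the receptor with the highest level per kilobase in embryonic cells. It spans chr1:187608791-188214885 on the plus strand (GRCm38, GENCODE M21). E14.5 positive cells held 7.28 to 266.5 CPM with a median of 108 CPM, and E14.5 negative cells 0.652 to 406 CPM with a median of 144.5 CPM. P5 positive cells held 161 CPM in L1P5, 87.6 CPM in L2P3, 36.1 CPM in L2P10, 27.2 CPM in L2P7, 0.748 CPM in L2P8 and 0 in L2P12. All P5 negative cells were at 0. The P5 positive cells thus lay within the range of E14.5 positive cells or below it, and none above 161 CPM. The P5 negative cells lay wholly below the E14.5 negative cells.

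The summed level of Esrrg was 102 CPM (E14.5 positive), 133 CPM (E14.5 negative) and 27.8 CPM (P5 positive). P5 positive over E14.5 positive gave a log2 ratio of -1.88 (-1.94 to -1.82), or 3.67-fold lower. It ranged from -2.68 without L2P3 to -1.39 without L2P8, and was -1.47 without L2P12. E14.5 positive over negative gave -0.38 (-0.41 to -0.36), but cells with title numbers 1 to 10 gave 0.30 and those with 21 to 30 gave -0.73. What these title numbers stand for is not stated in the labels.

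Esrra, the alpha receptor of the same family and a main partner of PGC1 proteins at genes of the respiratory chain, stood higher in P5 positive cells. It lies at chr19:6910977-6921813 on the minus strand and shares 73 bases with Trmt112 on the opposite strand. E14.5 positive cells held 0.0260 to 36.7 CPM with a median of 11.4 CPM, and E14.5 negative cells 0 to 21.4 CPM with a median of 6.18 CPM. P5 positive cells held 80.8 CPM in L2P8, 33.3 CPM in L2P3, 29.7 CPM in L2P7, 9.47 CPM in L2P10, 1.57 CPM in L1P5 and 0.0444 CPM in L2P12. Only L2P8 lay above the highest embryonic cell, and no P5 negative cell had a read.

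The summed level of Esrra was 9.17 CPM (E14.5 positive), 9.80 CPM (E14.5 negative) and 34.35 CPM (P5 positive, exact Poisson interval 33.2 to 35.6). P5 positive over E14.5 positive gave 1.91 (1.82 to 1.997), or 3.75-fold higher. L2P8 held 68.3% of the P5 positive counts, and without it the ratio was 0.74. E14.5 positive over negative gave -0.10 (-0.20 to 0.00221). Title numbers 1 to 10 gave 1.14 and 21 to 30 gave -1.01, in opposite directions.

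Esrrb, the beta receptor of this family, which is best known in stem cells and the placenta, was close to 0 in cardiomyocyte-led cells. Reads were found in 2 of 10 E14.5 positive, in 2 of 11 E14.5 negative and in 1 of 6 P5 positive cells, and the highest of these, N25, held 1.735 CPM. In P5 negative cells 4 of 6 had reads, led by 8.07 CPM in L2N7, which held 92.3% of the counts. Its levels did not reach 10 CPM in any cell.

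Ppara, the receptor for fatty acids that drives their oxidation in heart and liver, stood higher in P5 positive cells, and 1 cell carried most of this. The gene lies on the plus strand at chr15:85734983-85802819. P5 positive cells held 124.7 CPM in L2P8, 30.9 CPM in L2P7, 6.21 CPM in L2P10, 4.72 CPM in L1P5, 2.23 CPM in L2P3 and 0.0889 CPM in L2P12. E14.5 positive cells held 0 to 21.03 CPM with a median of 1.62 CPM, and E14.5 negative cells 0 to 59.8 CPM with a median of 0.0858 CPM. High values were thus scattered over groups, in G27 among E14.5 positive cells and in N3 and N30 among negative cells, and the P5 negative cells had no read.

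The summed level of Ppara was 41.8 CPM (P5 positive), 6.18 CPM (E14.5 positive) and 4.465 CPM (E14.5 negative). P5 positive over E14.5 positive gave 2.76 (2.66 to 2.86), or 6.76-fold higher. L2P8 held 86.7% of the P5 positive counts. The ratio was 0.34 without L2P8 and 4.89 without G27. E14.5 positive over negative gave 0.47 (0.34 to 0.60), with -1.19 within title numbers 1 to 10 and 1.17 within 21 to 30. With equal weight for each cell it was -1.10.

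Ppard, the delta receptor of the PPAR family, which also acts on fatty acid oxidation, was near 0 in cardiomyocyte-led cells. It had 11 counts in all E14.5 positive cells together, 0 in the negative ones and 6 in P5 positive cells. The P5 negative cell L2N7 held 6.23 CPM, and no other P5 negative cell had a read. Ppara, not Ppard, was thus the PPAR gene of the members with reads in most cardiomyocyte-led cells, 18 of 25 against 5 of 25. Pparg, from the list of other nuclear receptors, had no count in positive cells of either age.

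Rxra, the retinoid X receptor alpha and heterodimer partner of PPAR and thyroid hormone receptors, was read in embryonic cells and not in P5 positive cells. It lies on the plus strand at chr2:27676440-27762957. E14.5 positive cells held 0 to 15.9 CPM with a median of 3.02 CPM and reads in 6 of 10 cells. E14.5 negative cells held 0 to 31.3 CPM with a median of 1.01 CPM and reads in 8 of 11 cells. No read was found in any of the 6 P5 positive cells, a share of 0 with an exact interval up to 45.9%. Taking 3 counts over the whole group as the floor, the level was at least 152-fold lower in P5 positive than in E14.5 positive cells. The groups still overlapped, because 4 of 10 E14.5 positive cells were at 0 as well.

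E14.5 positive cells stood below E14.5 negative cells in Rxra, at 4.96 against 10.65 CPM, a log2 ratio of -1.10 (-1.22 to -0.98). Without N23, which held 44.8% of the negative counts, it was -0.48. It was -0.73 with equal weight for each cell, -0.63 after thinning all cells to the same total and -0.47 within title numbers 1 to 10. In P5 negative cells the endothelial-led L2N9 held 39.8 CPM, 99.3% of that group's counts, and L2N10 0.207 CPM. The other 2 retinoid X receptors are no members, and their values were looked at after those of Rxra. Rxrg had no count in any E14.5 or P5 negative cell but stood at 64.5 CPM in L2P10, 16 CPM in L2P8 and 0.0444 CPM in L2P12. Rxrb stood at 1.01 CPM (E14.5 positive) and 0.402 CPM (P5 positive).

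Thrb, the thyroid hormone receptor beta, had no read in E14.5 positive cells and was read in 3 of 6 P5 positive cells. It lies at chr14:17660261-18038090 on the plus strand. L2P10, which was low in cell cycle transcripts, held 23.6 CPM, or 59.6% of the group's counts. L2P3 held 9.32 CPM and L2P8 2.21 CPM, and L1P5, L2P7 and L2P12 were at 0. Of 21 embryonic cells only N7 had a read, a single count. The level in P5 positive cells, 5.41 CPM, was at least 285-fold higher than in E14.5 positive cells against the same floor. The 3 P5 positive cells without reads overlap the embryonic cells. In P5 negative cells L2N12, led by fibroblast and mural markers with epicardial markers also high, held 123 CPM, which was 99.95% of the group's counts.

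Thra, the thyroid hormone receptor alpha and the main form in heart muscle, was low in most cells. It lies on the plus strand at chr11:98740638-98769006 and shares 1075 bases with Nr1d1 on the opposite strand, and since the strand setting of the counting is not given, reads of the shared stretch cannot be assigned. E14.5 positive cells held 0 to 7.90 CPM with a median of 2.22 CPM, E14.5 negative cells 0 to 8.125 CPM with a median of 1.19 CPM, and P5 positive cells 0 to 9.26 CPM with a median of 0.103 CPM. These ranges lay over each other. P5 positive over E14.5 positive gave a log2 ratio of -0.43 (-0.73 to -0.14), and without L2P7, which held 82.9% of the counts, -2.74. E14.5 positive over negative gave -0.31, with 1.29 within title numbers 1 to 10 and -1.99 within 21 to 30. In P5 negative cells L2N7 held 84.4 CPM of Thra and 8.59 CPM of Nr1d1, and 95.7% of the group's Thra counts.

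**Figure D2:**
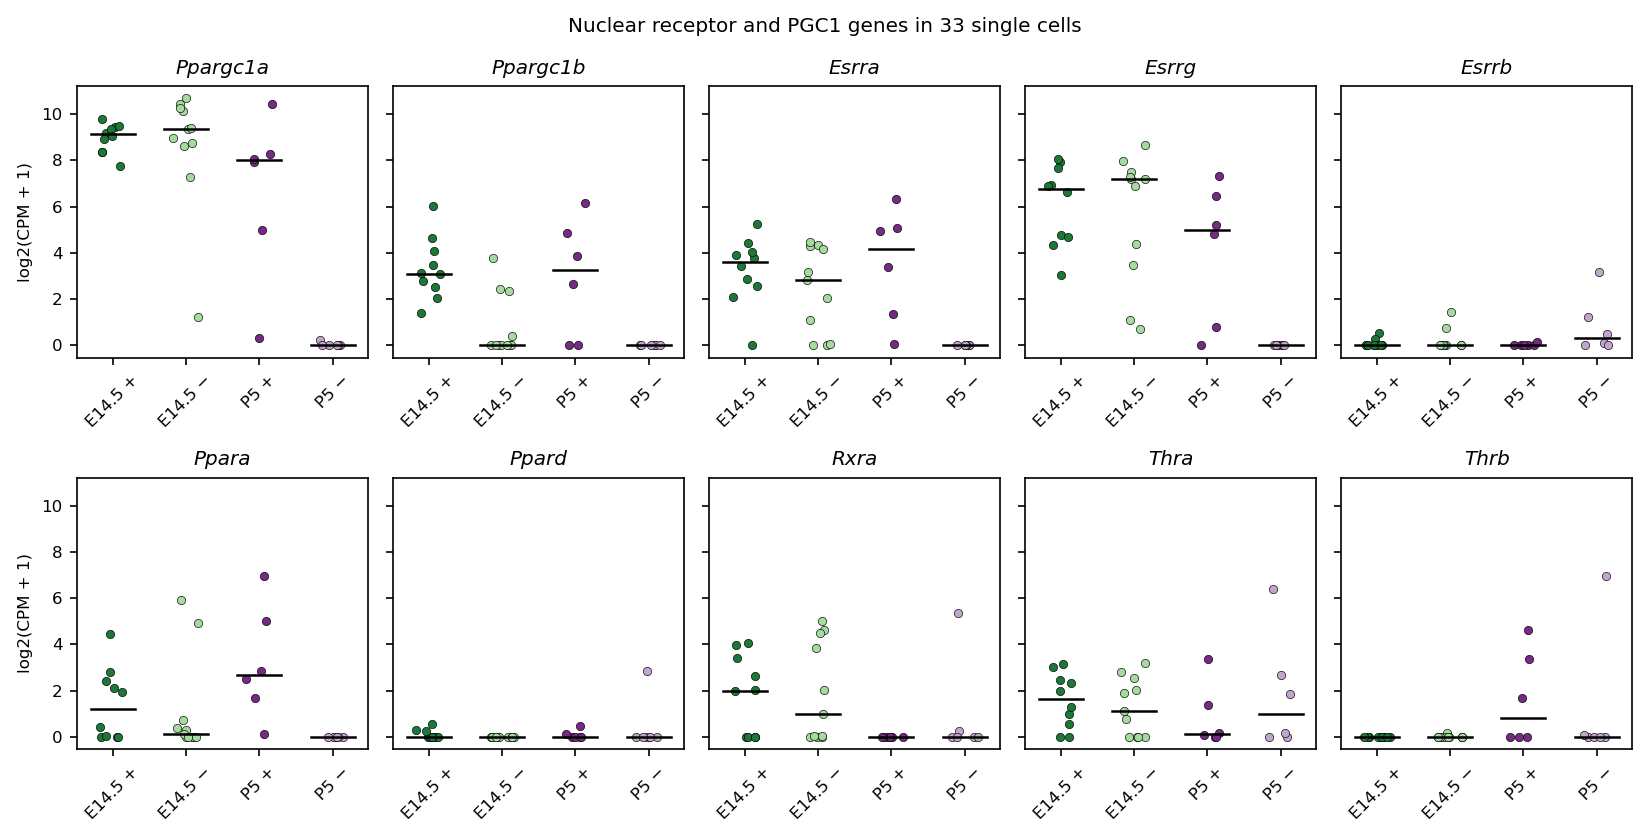
Levels of the 10 members in single cells as log2(CPM + 1), with 1 point per cell and a line at the group median, with + and − for mAG-hGem positive and negative cells (10 and 11 at E14.5, 6 and 6 at P5). Ppargc1a and Esrrg are high in most cells of the first 3 groups, Ppargc1b has reads in all E14.5 positive cells, and the points above 0 in P5 negative cells belong mainly to Esrrb, Ppard, Rxra, Thra and Thrb.

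Levels were also divided by kilobases of exon, to set different genes side by side. Whether counts of amplified RNA scale with exon length was not tested. On this scale Ppargc1a led with 80.2 CPM per kb (E14.5 positive), 119.8 CPM per kb (E14.5 negative) and 31.8 CPM per kb (P5 positive). Esrrg followed in the embryonic groups with 16.4 and 21.4 CPM per kb. In P5 positive cells Ppara at 10.9 and Esrra at 7.83 CPM per kb stood above Esrrg at 4.47 CPM per kb. L2P8 held 86.7% of the Ppara and 68.3% of the Esrra counts behind these 2 levels. In P5 negative cells Thra led with 6.54 CPM per kb, from L2N7, followed by Thrb at 3.39 CPM per kb, from L2N12.

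Members were also counted within cells. At 10 CPM or more, E14.5 positive cells held 2 to 4 members with a median of 3, E14.5 negative cells 1 to 4 with a median of 3, P5 positive cells 1 to 5 with a median of 3, and P5 negative cells 0 to 1. Ppargc1a reached this level in 24 of the 25 cardiomyocyte-led cells and in 1 of 8 others, the cell N10, which also held cardiomyocyte markers. Esrrg reached it in 22 of 25 against 0 of 8, Esrra in 12 of 25 against 0 of 8 and Ppara in 5 of 25 against 0 of 8. For Ppargc1b the counts were 7 of 25 and 1 of 8, for Rxra 6 of 25 and 1 of 8, for Thra 0 of 25 and 1 of 8, and for Thrb 1 of 25 and 1 of 8. Marker classes were assigned without the members, but the classes differ in group and depth, and no test was made.

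Esrra at 10 CPM or more was found only in cells where Ppargc1a also reached it, 12 of 12 cells, and Esrrg likewise in 21 of 22 cells. Ppargc1a itself reached 10 CPM in 25 of the 33 cells. Among the 21 embryonic cells, Spearman's rho of Ppargc1a was 0.62 with Rxra. With the other 8 members it lay between -0.28 (Ppard) and 0.36 (Ppara), and values as weak as these are no finding in sparse counts.

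The genes whose pattern over the 33 cells was most like each member's were named by Spearman's rho, with no p, since cells share group, depth and cell type. For Ppargc1a these were Ccdc141 (0.82), Snap91 (0.81) and Dld (0.76), the last a subunit of the pyruvate dehydrogenase complex. Esrrg had Pcdh7 (0.82), Dld (0.76) and Ppp1r3c (0.74), which targets a phosphatase to glycogen. Esrra had Akr1b10 (0.77), Fbxl22 (0.75) and Acot2 (0.745), a mitochondrial acyl-CoA thioesterase. Ppara had Ppif (0.72), Mb (0.71), which encodes myoglobin, and Sdhd (0.68), a subunit of succinate dehydrogenase. Ppargc1b had Spata5 (0.78), Fam83d (0.78) and the mitotic kinase gene Nek2 (0.765). Rxra had Mta1 (0.79), Glis2 (0.72) and Slc25a17 (0.68).

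Over all members, the age comparison in positive cells split evenly. Of 9 members with at least 10 counts, 3 were higher in P5 positive cells (Ppara, Esrra and Thrb), where 30.3% of all 12262 genes with as many counts were higher. Another 3 were lower (Ppargc1a, Esrrg and Rxra), where 40.9% of all genes were lower. Ppard, Ppargc1b and Thra lay within 2-fold, and Esrrb had too few counts. The members' median log2 ratio was -0.43 and that of all genes -0.39, so these shares lie near the background. Without L2P12 the members' median was -0.02, with 3 higher and 3 lower, beside 24.5% and 49% of all genes. Without L2P8 the median was 0.05 and only Thrb was still higher, beside 27.8% of all genes.

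In the embryonic comparison of positive over negative cells, 2 of 9 members were higher, Ppargc1b and Ppard, the latter with 11 counts against 0, where 22.4% of 12633 genes were higher. Rxra and Esrrb were lower, where 29% of genes were lower, and 5 members lay within 2-fold. These shares too lie near the background.

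At P5, positive over negative cells placed 5 of 10 members higher, where 34.2% of 11567 genes were, and 5 lower, where 39.4% were. The higher members were Ppara, Ppargc1a, Ppargc1b, Esrra and Esrrg. Ppara, Ppargc1a and Esrra did not overlap between the groups, 3 of 10 members where 1.43% of all genes lay wholly above. In each of these the lowest positive cell was L2P12, with 2 counts of Ppara, 6 of Ppargc1a (0.267 CPM, against 0.194 CPM in L2N4) and 1 of Esrra. Also wholly above were 6 of 12 cardiomyocyte markers, 5 of 34 listed mitochondrial genes, 1 of 32 fatty acid genes and 1 of 17 thyroid hormone genes. None of 26 coregulators and none of 19 other nuclear receptors were. P5 negative cells were led by other markers, so mAG-hGem status and cell type cannot be told apart here. The log2 ratio of Ppargc1a was 14.09 (11.61 to 19.39) against the single count of P5 negative cells. Of the lower members, Thra, Thrb, Rxra, Ppard and Esrrb, each had at least 92.3% of its P5 negative counts in 1 cell.

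P5 negative over E14.5 negative cells placed 4 members higher, where 33.6% of 12552 genes were, and 6 lower, where 41.7% were. The higher ones were Ppard, Esrrb, Thra and Thrb. Ppargc1a and Esrrg lay wholly below, 2 of 10 members where 1.53% of genes did. So did 10 of 12 cardiomyocyte markers, 9 of 34 listed mitochondrial genes, 3 of 30 fatty acid genes and 3 of 16 thyroid hormone genes. Of 26 coregulators 1 did, and none of 19 other nuclear receptors. Esrrg was at least 3677-fold lower. Cardiomyocyte markers moved with this, since they summed to 0.484 to 3291 CPM in P5 negative and to 17706 to 46478 CPM in E14.5 negative cells, and their part in the result was not tested. The 4 comparisons share groups, so their values are not independent of each other.

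**Figure D3:**
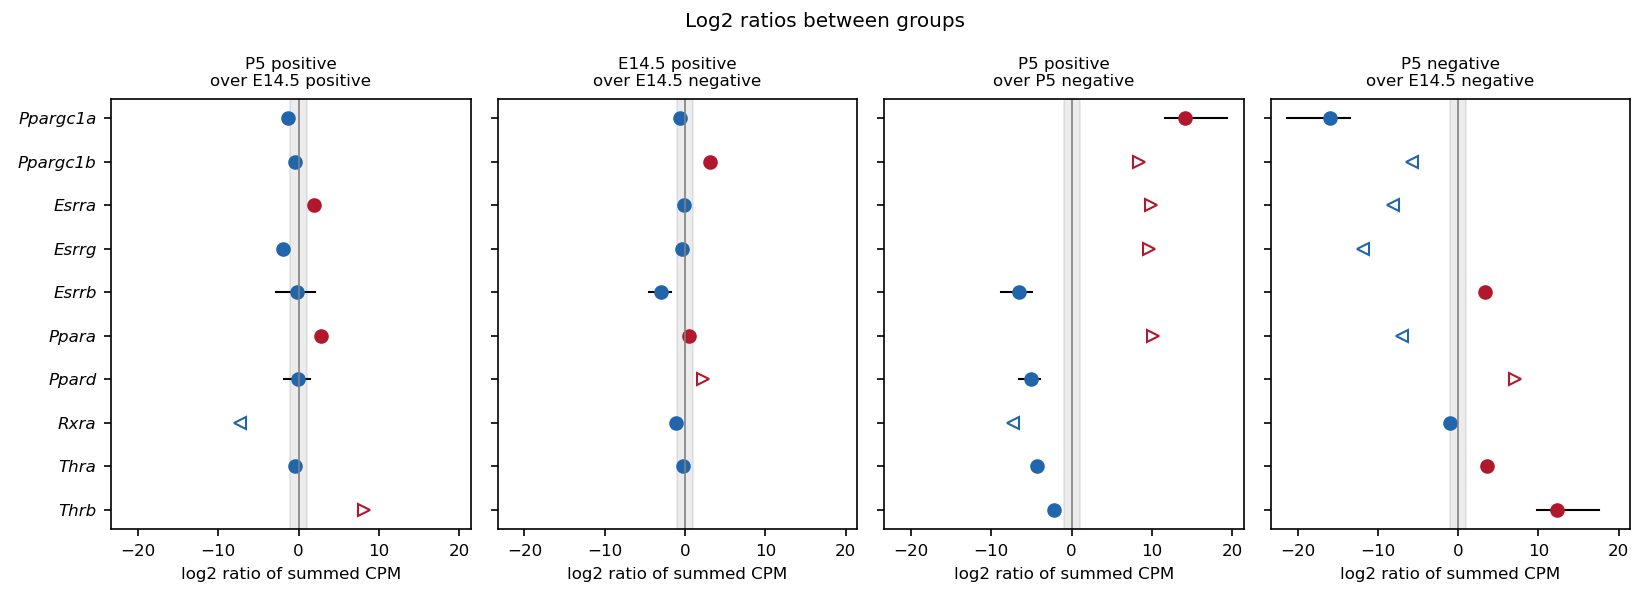
Log2 ratios of the summed CPM of the 10 members in the 4 comparisons. Circles are ratios with their exact 95% interval, open triangles are bounds against a floor of 3 counts where a group had no count, and the grey band is 2-fold. In the 2 comparisons without P5 negative cells most ratios lie near the band, with Rxra and Thrb as bounds farther out in the age comparison, while ratios with P5 negative cells are mostly larger.

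Lists of genes that these receptors and coactivators are known to control, or that work with them, were read in positive cells of both ages. Of 33 listed fatty acid genes, 32 were in the table, and 20 were higher in P5 positive cells, 12 within 2-fold and none lower, beside 30.3% and 40.9% of all genes. The median log2 ratio was 1.455, against -0.39 for all genes. Plin5, which coats lipid droplets, stood at 29.3 against 0 CPM, and Acadvl, the dehydrogenase for very long chains, at 458 against 19.6 CPM. Plin5 was read in 3 of 6 P5 positive cells, with 57.2% of the counts in L2P10, and L2P8 held 69.9% of the P5 positive Acadvl counts. Fabp3, the fatty acid binding protein of muscle, stood at 5963 against 628 CPM and the fatty acid transporter Cd36 at 1091 against 125 CPM, both named after their values were seen. At the low end Acadm was at 0.06, Etfa at -0.80 and Acadl at -0.97. Without L2P12, 22 were higher and none lower, beside 24.5% and 49% of all genes. Without L2P8, 18 were higher and none lower, beside 27.8% and 42.5%.

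The fatty acid list was also summed within each cell. This sum ran from 4828 to 14856 CPM in E14.5 positive cells and stood at 22781 CPM in L1P5, 23178 CPM in L2P3, 25604 CPM in L2P7, 15601 CPM in L2P8, 36774 CPM in L2P10 and 4973 CPM in L2P12. The 5 cardiomyocyte-led P5 positive cells thus lay above every E14.5 positive cell. E14.5 negative cells ran from 4157 to 18595 CPM, and the highest, the cardiomyocyte-led N7, lay above L2P8. Of the sum in L2P10, 19722 CPM was Fabp3 alone. Without Fabp3, left out after its values were seen, the sums were 20012 CPM in L1P5, 18028 CPM in L2P7, 17052 CPM in L2P10, 16943 CPM in L2P3, 11734 CPM in L2P8 and 4923 CPM in L2P12, and E14.5 positive cells reached 14389 CPM. L2P8, with the most Ppara and Esrra, was then within the range of E14.5 positive cells, and 4 P5 positive cells lay above it. The E14.5 negative cell N7 held 18002 CPM without Fabp3, above L2P10, L2P3 and L2P8.

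Of the 34 mitochondrial genes, 13 were higher in P5 positive cells and 5 lower, beside 30.3% and 40.9% of all genes, with a median of 0.45. Without L2P12 the median was 0.81, with 15 higher and 4 lower, beside 24.5% and 49% of all genes. Ckmt2, the mitochondrial creatine kinase of muscle, was at 6.26, Uqcrc1 of complex III at 4.76 and Cox6a2 of complex IV at 3.34. The lower end held Idh3a, of the citric acid cycle, at 370.2 against 741 CPM and Vegfa, an angiogenic PGC1 target, at -2.84. Gabpa, a transcription factor through which PGC1 acts on respiratory genes, was lowest of the named genes at -2.99. The other regulators of mitochondrial transcription on the list, picked out after their values were seen, went in both directions. Tfb2m was at 1.77, Tfb1m at -0.14, Nrf1 at -0.48, Tfam at -0.73 and Gabpb1 at -1.96, and the mitochondrial RNA polymerase Polrmt had 1 count in P5 positive and 137 in E14.5 positive cells.

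Of the 19 thyroid hormone genes in the table, 16 had enough counts. Of these, 9 were higher and 4 lower, beside 30.3% and 40.9% of all genes, with a median of 1.22. The myosin heavy chain Myh6 was at 5.05 and Myh7 at -4.68, the pair whose exchange thyroid hormone is known to drive. For Myh7 every P5 positive cell lay below every E14.5 positive cell, as for 0.718% of all genes. Klf9, a direct target of the hormone receptors, was at 4.41 and the glucose transporter Slc2a4 at 3.42. Atp1b1 was at -1.67 and Kcnd2 at -3.78. Without L2P8 the median was 0.00111, with 6 higher and 5 lower, beside 27.8% and 42.5% of all genes.

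Of the 27 coregulators present, 26 had enough counts, with 3 higher, 10 lower and a median of -0.55, beside 30.3% and 40.9% of all genes. Sirt3, the mitochondrial deacetylase, was at 4.24, and the coactivators Ncoa6 and Ncoa3 were at 0.63 and 0.46. Of the P5 positive counts, L2P8 held 67% for Sirt3, L2P12 63.6% for Ncoa6 and L2P3 99.7% for Ncoa3. The cell medians of Ncoa6 and Ncoa3 were lower in P5 positive cells, at 12.8 against 39.8 CPM and 0.0444 against 19.3 CPM. The acetyltransferases Ep300 and Crebbp were at -4.04 and -2.06 and Sirt1, which deacetylates PGC1 alpha, at -2.27. Among P5 positive cells, L2P8 held 98.6% of the Ep300, L2P12 54.3% of the Crebbp and L2P7 98.9% of the Sirt1 counts. Without L2P12, 14 were lower with a median of -1.08, beside 49% of all genes lower, and without L2P8, 14 were lower with a median of -1.36, beside 42.5% of all genes. Of the 22 other nuclear receptors present, 18 had enough counts, with 4 higher, 9 lower and a median of -0.77, beside 30.3% and 40.9% of all genes. Without L2P12, 2 were higher and 9 lower with a median of -1.11, beside 24.5% and 49% of all genes.

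Among those receptors, Nr2f1 was at 4.52, but 94.2 CPM of it lay in L2P12 and at most 0.160 CPM in the other P5 positive cells. The clock receptor Nr1d2 was at 0.86 and Nr2c1 at -0.33. L2P12 held 61% of the P5 positive Nr1d2 counts, and L2P8 held 99.4% of those of Nr2c1. Nr4a1 was at -0.40, the glucocorticoid receptor Nr3c1 at -1.325 and the retinoic acid receptor Rarb at -2.03. L2P7 held 62.9% of the P5 positive Nr4a1 counts and 75% of those of Rarb. The other receptors higher in P5 positive cells were Rxrg, Nr1h2 and Nr3c2, named after their values were seen. For Nr1h2, 98.3% of the counts lay in L2P12, at 61.2 CPM, and the next P5 positive cell held 1.76 CPM. Nr3c2, the mineralocorticoid receptor, was read only in L2P8 among the positive cells, at 16.8 CPM.

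**Figure D4:**
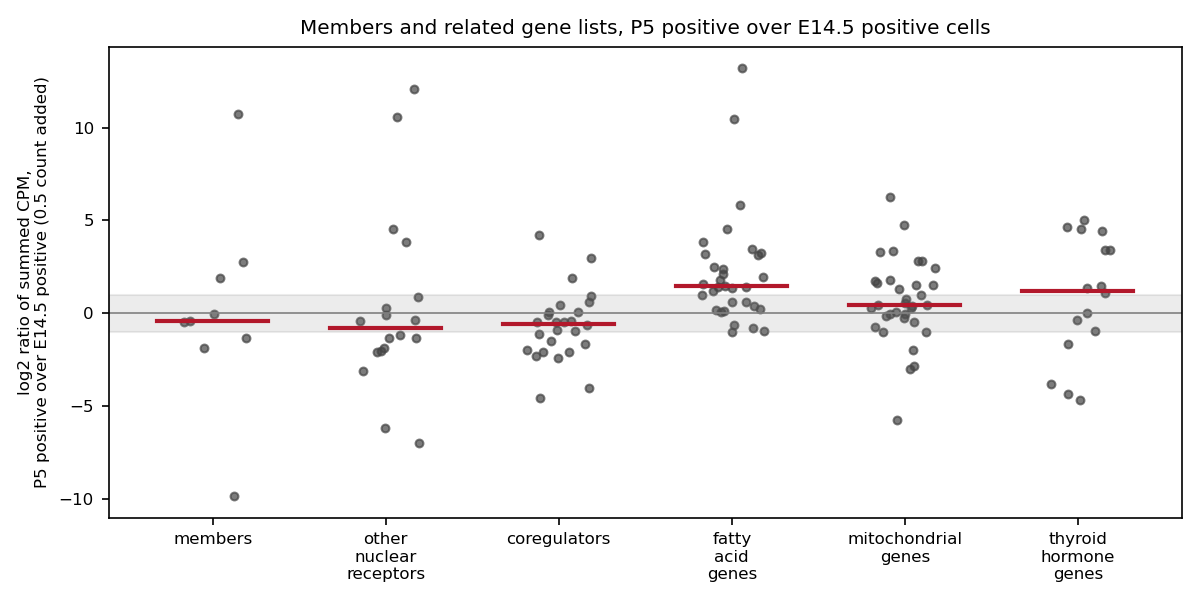
Log2 ratio of summed CPM, P5 positive over E14.5 positive cells with 0.5 count added, for each gene with at least 10 counts in the members and 5 related lists. Each point is 1 gene, the red line is the list median and the grey band is 2-fold, and only the fatty acid list has no gene below the band.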

How the data were processed

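Read counts per gene, as the authors deposited them, were available for 33 single cells in 1 table of whole numbers. The submitters' processing notes name CASAVA 1.8.2, STAR 2.4.0j, HTSeq 0.6.1p1 and the build mm10 without their settings. The annotation, the strand setting and any molecular identifiers are not given in the sources used here. Amplified reads are not independent molecules, so intervals and floors cover counting error only. For each group, CPM is the gene's summed count per 1000000 of the summed totals. Log2 ratios for calls and lists had 0.5 count added to each side; printed ratios of members have none, and a group at 0 was set to a floor of 3 counts.

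Groups came from the labels, and each group counted as 1 sample because no animal is named. The members and gene lists were chosen with earlier results of these data known. Named genes are all members, the 3 genes most like each member at 10 CPM in at least 5 cells, chosen among genes at 10 CPM in at least 10 cells, and the 3 highest and 3 lowest genes of each list at 20 CPM or more in the higher group. A gene chosen by this rule is not reported here. Others were named after their values were seen. Marker lists of 6 cell classes were used to find the leading class of each cell. Of these lists, 8 endothelial, 8 of 9 fibroblast and mural, 4 of 8 red blood cell, 4 of 6 immune and 5 epicardial markers were in the table. Immune markers summed to at most 379 CPM and epicardial markers to at most 3721 CPM, the latter in L2N12, and neither class led a cell.

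Ratios were computed with Python 3.11.15, numpy 2.4.6 and scipy 1.17.1, and the calculation was checked on simulated counts. These were Poisson draws without variation between cells other than depth. They therefore do not show how the ratios or intervals behave in these cells. Alternatives used TMM factors of edgeR 4.0.16, size factors of DESeq2 1.42.0, equal weights, other filters, thinning and leaving out cells. Totals per cell ran from 2.55 to 38.5 M counts. Gene coordinates and exon lengths are from GENCODE M21, promoters from RefSeq. Promoters of Thra and Ppargc1b were not used here.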

Additional observations from a re-analysis of the deposited data

Results flagged for a closer look

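Dixon's limit was applied to log2(CPM + 1) of each member within groups of 4 to 10 cells in which at least 1 cell reached 10 CPM, and 2 of the 15 combinations held a cell far from the others. The P5 negative cell L2N9, led by endothelial markers, held 39.8 CPM of Rxra, and the next cell 0.207 CPM. The P5 negative cell L2N12, led by fibroblast and mural markers with epicardial markers also high, held 123 CPM of Thrb, and the next cell 0.0691 CPM. Both combinations entered only because of these same cells, so the usual rate of about 1 in 20 groups by chance does not apply, and the values are descriptions. The 11 E14.5 negative cells were not checked.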

How the results depend on the processing

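Of the alternatives for counts of members per comparison, 191 stayed within 1.5 times the reported count and 25 did not, the counts of members per cell included. Leaving out each cell in turn gave 1 to 3 members higher and 3 to 4 lower for P5 positive over E14.5 positive cells (1 without L2P8), 1 to 3 higher and 1 to 2 lower for E14.5 positive over negative, 5 to 6 higher and 3 to 5 lower for P5 positive over negative (3 without L2N7), and 1 to 4 higher and 5 to 6 lower for P5 negative over E14.5 negative (1 without L2N7). For E14.5 positive over negative, 1 member was higher with at least 50 counts or after thinning to 8671357 counts, and 1 was lower within titles 1 to 10 or after thinning, against 4 within titles 21 to 30. Medians of members per cell (positive then negative at E14.5, then likewise at P5) were 7, 6, 6.5 and 2.5 with any read and 6, 5, 5 and 1 at 1 CPM or more; after thinning, P5 negative cells had 1. Thinning left out 6 cells.

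Among ratios of members, 694 stayed the same and 253 moved. Of ratios past 2-fold 3 changed sign, each under 1 alternative, and of those within 2-fold 7 changed sign, under 32 alternatives in all. Thrb in P5 positive over P5 negative cells went from -2.21 to 7.90 without L2N12 and was -3.31 without L2P10, the range of its values without 1 cell. In P5 negative over E14.5 negative cells, Thra went from 3.57 to -0.35 without L2N7 and was at most 3.99 without another cell, and Rxra went from -1.001 to 0.44 after thinning, which left out 2 of the 6 P5 negative cells; the cause was not tested. DESeq2 size factors moved the median of all genes in P5 positive over E14.5 positive cells from -0.39 to -0.00226 (TMM to -0.23), and with them 35.3% of genes were higher and 35.7% lower. Leaving out cells led by other markers left no P5 negative cell and gives no value there. No paired analysis was possible because a title number names 1 cell, which cannot be in 2 groups, no animal is named, and no test was made.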
